A study of Mus musculus with 8 samples.

Results

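Cholesterol that reaches the gut lumen is taken into the enterocyte, esterified for export in lipoproteins, or pumped back out. The genes described here encode the proteins of these steps and the nuclear receptors that set their level: Npc1l1 and Scarb1 for uptake, Abcg5, Abcg8 and Abca1 for efflux, Soat2 for esterification, Nr1h3 and Nr1h2 for the liver X receptors LXRα and LXRβ, and the LXR target Mylip. They were grouped by their known function, with earlier results of these data known, and they are 9 of the 54532 genes in the count table. Their counts are therefore a description, and not independent evidence of a direction. Npc1l1 and Scarb1 are also among the lipid genes that the study itself names on these samples.

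NPC1L1 sits in the brush border and carries cholesterol and plant sterols into the cell. ABCG5 and ABCG8 form 1 heterodimer that returns sterols, plant sterols above all, to the lumen, whereas ABCA1 loads cholesterol onto apolipoprotein A-I at the basolateral side. When sterols build up, oxysterols activate the LXRs, which form heterodimers with RXR, raise the ABC transporters and induce Mylip, a ubiquitin ligase that marks lipoprotein receptors for degradation.

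Intestinal epithelial cells were collected from mice at lactation day 5, with 4 WT and 4 Rank-knockout libraries. Rank (Tnfrsf11a) encodes the receptor for the cytokine RANKL. Per the study's methods it was deleted with a floxed allele and Cre under the Villin1 promoter, which acts along the whole intestinal epithelium from the crypt to the villus and not in a single cell type, and all mice were on a C57BL/6J background. The labels give no segment of the gut and no Cre status for the WT animals, and the sequenced tags come from the 3′ ends of polyadenylated RNA.

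The libraries held 1530781 to 4335653 counts, so 1 CPM (a count scaled by the TMM-adjusted library size) stood for 1.47 to 4.75 counts. For Tnfrsf11a the mean was 60.2 ± 17.5 CPM among WT and 37.7 ± 8.57 CPM among Rank-knockout libraries (SD, n = 4), with overlapping ranges (log2 fold change -0.67, SE 0.22; edgeR adjusted p = 0.032). Tags at the 3′ end can lie outside what was deleted, so this value does not check the deletion. The study itself reports that RANK was lost from the intestine of mice with this deletion. Of 8 epithelial markers, 3 were lower and 2 higher, and their summed level was 11345 to 12439 CPM in WT and 8853 to 11172 CPM in Rank-knockout. All 12 villus enterocyte markers were lower, with sums of 15390 to 23082 CPM against 7444 to 11410 CPM, and all 12 replication and cell cycle genes were higher, with sums of 400.1 to 641.5 CPM against 942.2 to 1613 CPM. In bulk RNA, fewer cells of a type and less RNA per cell cannot be told apart. Macrophage markers, which matter for Abca1, summed to 7.45 to 25.8 CPM in WT and 5.75 to 18.6 CPM in Rank-knockout, with Adgre1 at 0 in all libraries.

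The stretch between the Abcg5 and Abcg8 start sites is shown first because the pair can be transcribed outwards from it. By RefSeq on GRCm38.p6, Abcg5 starts at 84683011 on the minus strand of chromosome 17 and Abcg8 at 84683121 on the plus strand, which leaves 109 bases between these starts, 45.9% of them G or C. The interval is chr17:84683012-84683120, read on the plus strand, and capitals mark matches to AGATAA, the letters of a GATA element, here as the reverse complement.
Abcg5-Abcg8 interval: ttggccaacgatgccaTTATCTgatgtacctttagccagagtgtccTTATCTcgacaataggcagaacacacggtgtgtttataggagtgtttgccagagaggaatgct
AGATAA occurred on either strand in 11.2% of 32851 RefSeq promoter windows, which span the start of a gene, and in 2 of the 9 windows found for 7 of the members. Those 2 are the windows of the starts given above, which overlap and share the matches. RefSeq lists another Abcg8 start at 84676302, inside the Abcg5 gene, and its window held no match.

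The 100 bases before the Abca1 start are shown because Abca1 is a classical LXR target. They lie at chr4:53159896-53159995 and are read on the minus strand, with capitals for a match to GGTNA, 5 free bases and GGTNA, a relaxed form of the direct repeat that LXR and RXR bind, again as the reverse complement.
Abca1 upstream: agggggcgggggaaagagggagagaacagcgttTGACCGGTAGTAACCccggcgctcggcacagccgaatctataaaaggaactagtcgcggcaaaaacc
This relaxed form occurred in 0.718% of the windows and, of the 9 member windows, only in that of Abca1. The strict repeat of AGGTCA with 4 free bases between the copies (0.0152% of windows), the sterol regulatory element TCACNCCAC (1.24%) and the HNF4A half-element CAAAGTCCA (0.475%) matched 0 of the 9. All were searched on both strands. A match is a run of letters, not a site shown to be bound.

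Of the 9 genes, 8 had enough counts to be tested, and 6 of these were lower in Rank-knockout (edgeR adjusted p under 0.05 over all 9855 genes tested). Over all genes tested, 14.6% were lower by this rule and 30.4% were called in either direction. The 6 were Npc1l1, Scarb1, Abcg5, Abcg8, Abca1 and Nr1h3; 0 were higher, against 15.8% of all genes tested. Their median log2 fold change was -1.03 over the 8 genes, beside 0.02 over all tested genes. In 5 of them the WT and Rank-knockout libraries did not overlap, which held for 28.8% of all tested genes, and for 14.3% with Rank-knockout on the lower side.

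**Figure D1:**
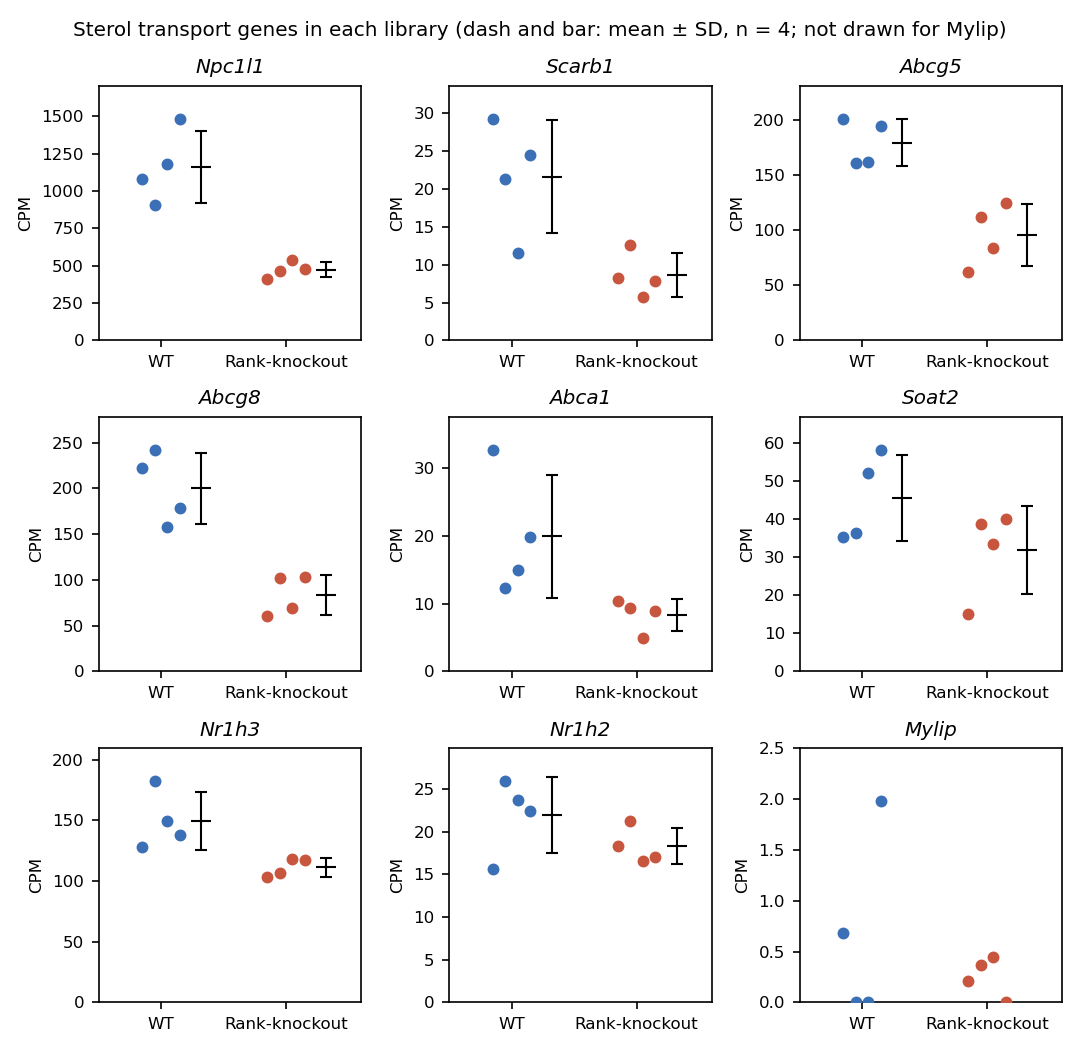
CPM of each of the 9 genes (vertical axes, linear, each with its own range from 0) in the 4 WT and 4 Rank-knockout libraries; points are libraries, and the dash and bar beside them are the mean and SD. All 4 Rank-knockout libraries lie below all WT libraries for Npc1l1, Abcg5, Abcg8, Abca1 and Nr1h3, while Mylip had 0 to 3 counts per library.

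Npc1l1 (ENSMUSG00000020447; GRCm38 chromosome 11, 6211013 to 6230143, minus strand), the uptake transporter that ezetimibe blocks, had 1083, 904, 1180 and 1481 CPM in WT replicates 1 to 4 and 413, 468, 535 and 481 CPM in Rank-knockout replicates 1 to 4. Every Rank-knockout library was well below the lowest WT library, and the Rank-knockout libraries lay close together. The mean went from 1162 ± 241 CPM to 474 ± 50.1 CPM (SD, n = 4), which is 40.8% of WT. The log2 fold change was -1.29 (SE 0.16; 95% interval -1.64 to -0.95; edgeR adjusted p = 0.00015).

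Scarb1 (ENSMUSG00000037936; chromosome 5, 125277087 to 125341094, minus strand) encodes SR-BI, a receptor for high-density lipoprotein that is also present on enterocytes. It had 29.2, 21.4, 11.5 and 24.4 CPM in WT and 8.21, 12.7, 5.80 and 7.84 CPM in Rank-knockout. Here the genotypes overlapped by 1 pair of libraries, since WT replicate 3 was below Rank-knockout replicate 2. The log2 fold change was -1.32 (SE 0.29; 95% interval -1.93 to -0.71; edgeR adjusted p = 0.0032), and it rested on 182 counts in all WT libraries and 116 in all Rank-knockout libraries. The fall of Scarb1 was thus as large as that of Npc1l1 but its interval was wider.

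Among the efflux genes, Abcg8 (ENSMUSG00000024254; chromosome 17, 84676302 to 84700333, plus strand) had 223, 242, 158 and 178 CPM in WT and 60.2, 102, 69.6 and 103 CPM in Rank-knockout. The lowest WT library was above the highest Rank-knockout library. The mean fell from 200.2 ± 38.8 CPM to 83.8 ± 22.1 CPM (SD, n = 4), with a log2 fold change of -1.26 (SE 0.19; 95% interval -1.67 to -0.85; edgeR adjusted p = 0.00044).

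Its partner Abcg5 (ENSMUSG00000040505; chromosome 17, 84658234 to 84683011, minus strand) had 201, 161, 163 and 195 CPM in WT and 62.3, 112, 83.9 and 125 CPM in Rank-knockout. Again the genotypes did not overlap. Its log2 fold change was -0.90 (SE 0.19; 95% interval -1.31 to -0.50; edgeR adjusted p = 0.0028), with means of 180 ± 21.1 CPM and 96.0 ± 28.3 CPM (SD, n = 4). In GENCODE the Abcg5 and Abcg8 genes overlap on opposite strands, and the authors counted reads on the sense strand. Over the 8 libraries the log2 CPM of the pair had a Pearson r of 0.94, a description of points that share libraries and a genotype difference.

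Abca1 (ENSMUSG00000015243; chromosome 4, 53030787 to 53159895, minus strand) had 32.6, 12.3, 14.9 and 19.8 CPM in WT and 10.3, 9.31, 4.91 and 8.89 CPM in Rank-knockout. WT replicate 1 stood highest, and the gap between the lowest WT and the highest Rank-knockout library was narrow. The log2 fold change was -1.16 (SE 0.31; 95% interval -1.82 to -0.50; edgeR adjusted p = 0.011), on 149 and 119 counts. Without WT replicate 1, the WT library with the highest macrophage sum (25.8 CPM), it was -0.86 (edgeR adjusted p = 0.043). The part of macrophage RNA in the result was not tested.

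Soat2 (ENSMUSG00000023045; chromosome 15, 102150526 to 102163469, plus strand), the acyltransferase that esterifies cholesterol in enterocytes, had 35.3, 36.4, 52.2 and 58.1 CPM in WT and 14.95, 38.7, 33.5 and 40.0 CPM in Rank-knockout. Only Rank-knockout replicates 1 and 3 were below all WT libraries. The log2 fold change was -0.52 (SE 0.28; 95% interval -1.12 to 0.08; edgeR adjusted p = 0.17), an interval that holds 0 as well as a fall of the size seen for Abcg5. Without Rank-knockout replicate 1 it was -0.26 (edgeR adjusted p = 0.40). With a term for the replicate number it was -0.55 (edgeR adjusted p = 0.047), though the labels do not say that these numbers mark pairs.

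Of the receptors, Nr1h3 (ENSMUSG00000002108; chromosome 2, 91184061 to 91202834, minus strand), which encodes LXRα, had 128, 182, 150 and 138 CPM in WT and 103, 106, 118 and 118 CPM in Rank-knockout. All Rank-knockout libraries were below all WT libraries, by a small margin. The log2 fold change was -0.43 (SE 0.14; 95% interval -0.74 to -0.13; edgeR adjusted p = 0.033). The call depended on the scaling and on single libraries: with library totals, which moved the median of all genes by 0.20 on the log2 scale, the log2 fold change was -0.23 (edgeR adjusted p = 0.21), and the call held in 9 of 17 other settings.

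Nr1h2 (ENSMUSG00000060601; chromosome 7, 44549616 to 44553951, minus strand), which encodes LXRβ, had 15.6, 25.9, 23.7 and 22.5 CPM in WT and 18.3, 21.2, 16.5 and 16.997 CPM in Rank-knockout. WT replicate 1 was the lowest of all 8 libraries, and the genotypes overlapped. The log2 fold change was -0.29 (SE 0.20; 95% interval -0.72 to 0.15; edgeR adjusted p = 0.31).

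Mylip (ENSMUSG00000038175; chromosome 13, 45389742 to 45412022, plus strand) had 1, 0, 0 and 3 counts in WT and 1, 1, 1 and 0 counts in Rank-knockout. It was too low to be tested, and a difference was not detectable at this depth.

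Rank-knockout replicate 1 was the lowest of the Rank-knockout libraries for Npc1l1, Abcg5, Abcg8, Soat2 and Nr1h3. The same library had the lowest villus marker sum, 7444 CPM, and the highest sum of replication genes, 1613 CPM. It was not low for every member, since it was the highest Rank-knockout library for Abca1 and only Rank-knockout replicate 2 was above it for Scarb1 and Nr1h2. Without it, Npc1l1, Scarb1, Abcg5, Abcg8 and Abca1 were still called, and Nr1h3 was not.

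Whether the genes kept their proportions to each other was examined with the log2 ratio of 2 genes' counts in the same library, which needs no scaling between libraries. For 9 pairs, the ratios of Rank-knockout and WT libraries were compared by an exact two-sided permutation test over the 70 assignments of libraries, where the smallest possible p is 0.029. None of the 9 pairs reached an adjusted p under 0.05 (Benjamini-Hochberg over the 9), and none reached an unadjusted p under 0.05. With this smallest p, no single pair could have passed after adjustment, so the unadjusted values and sizes are given.

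The ratio of Npc1l1 to Abcg8, uptake against efflux, had a log2 mean of 2.53 ± 0.54 in WT libraries and 2.53 ± 0.38 in Rank-knockout (SD, n = 4; exact permutation p = 1). Npc1l1 to Scarb1 moved by 0.02 (exact permutation p = 0.94), and Npc1l1 to Abcg5 by -0.33 (exact permutation p = 0.26). The falls of Npc1l1, Abcg5, Abcg8 and Scarb1 were thus not separated by these 3 ratios, and Npc1l1 was not compared with Abca1.

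The ratio of Abcg5 to Abcg8 had a mean of -0.14 ± 0.32 in WT libraries and 0.18 ± 0.11 in Rank-knockout (n = 4, with SD), which differ by 0.33 (exact permutation p = 0.057, adjusted p = 0.51), and by 0.18 without WT replicate 2. The ratio of Npc1l1 to Soat2 averaged 4.68 ± 0.18 in WT libraries and 3.99 ± 0.56 in Rank-knockout (n = 4, with SD), which differ by -0.69 (exact permutation p = 0.11, adjusted p = 0.51). In 3 of 4 Rank-knockout libraries this ratio lay below every WT library, and Rank-knockout replicate 1 lay among the WT libraries. Abca1 to Nr1h3 differed by -0.78 (exact permutation p = 0.17), and by -0.44 without WT replicate 1. Nr1h3 to Nr1h2 differed by -0.16 (exact permutation p = 0.34) and Scarb1 to Abca1 by -0.10 (exact permutation p = 0.77). Mylip to Nr1h3, with 0 to 3 Mylip counts per library, differed by -0.26 (exact permutation p = 0.83).

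**Figure D2:**
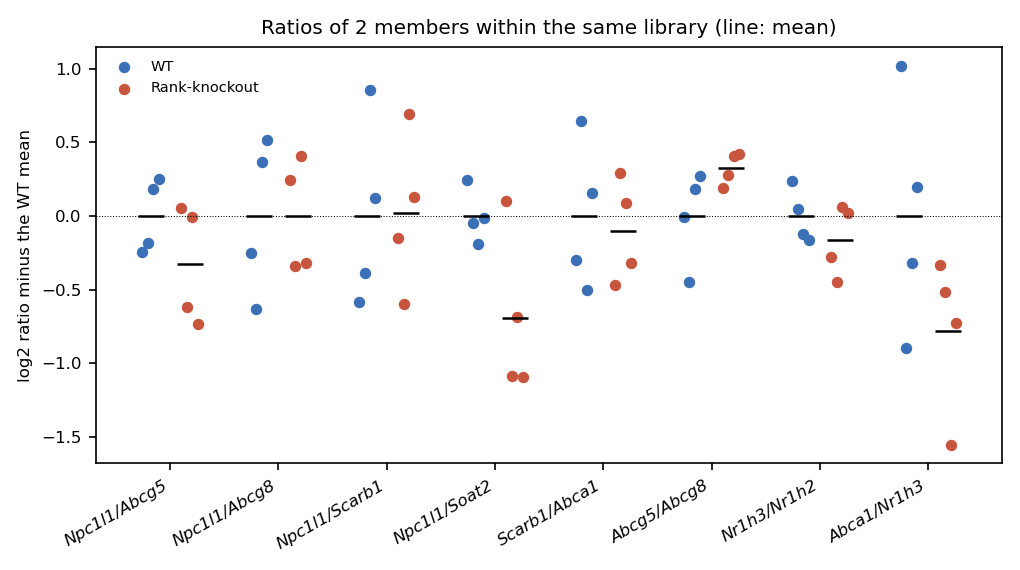
Log2 ratio of 2 genes' counts within a library, minus the mean of the WT libraries for that pair (vertical axis), for the 8 pairs without Mylip; points are libraries and lines are means of the 4 libraries of a genotype. WT and Rank-knockout points overlap in all 8 pairs, with the mean of Npc1l1/Abcg8 almost equal and that of Npc1l1/Soat2 lower by 0.69 in Rank-knockout.

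Since the villus markers fell in the same libraries, the 8 genes were also set on scales defined by other genes of the sample. Scaled to the 8 epithelial markers, which moved the median of all genes by 0.20, Npc1l1, Scarb1, Abcg5, Abcg8 and Abca1 were still lower, with log2 fold changes of -1.10, -1.14, -0.74, -1.09 and -0.98 (edgeR adjusted p = 0.00032, 0.010, 0.0053, 0.00065 and 0.034). On that scale 8.46% of all tested genes were lower. Nr1h3 was at -0.23 (edgeR adjusted p = 0.25).

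Scaled to the 12 villus enterocyte markers, none of the 8 genes was lower. This scale raises nearly everything else: the median over all genes became 1.17 on the log2 scale, and 85.7% of all genes were higher and 0.122% lower at an edgeR adjusted p under 0.05. Npc1l1 was at -0.12 (95% interval -0.51 to 0.27), Scarb1 at -0.18 (-0.83 to 0.46), Abcg8 at -0.16 (-0.62 to 0.30), Abca1 at -0.01 (-0.70 to 0.68) and Abcg5 at 0.22 (-0.19 to 0.63). These estimates lay near 0, that is, the genes moved about as far as the villus markers did, with intervals that leave room for changes in either direction. Soat2 at 0.60, Nr1h3 at 0.70 and Nr1h2 at 0.85 were called higher on this scale (edgeR adjusted p = 0.028, 0.0047 and 0.0050), as 85.7% of all genes were. How much of the fall of the transporters went with the amount of villus enterocyte RNA was not tested.

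**Figure D3:**
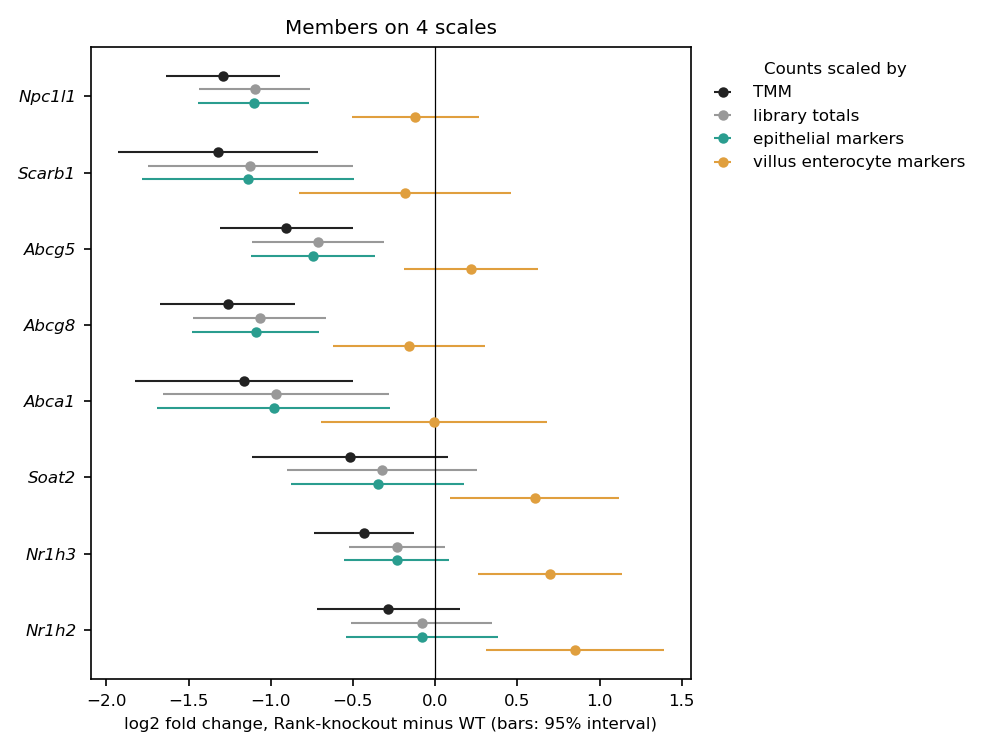
Log2 fold change, Rank-knockout minus WT (horizontal axis), of the 8 tested genes with counts scaled by TMM, library totals, epithelial markers or villus enterocyte markers; points are edgeR estimates from 4 against 4 libraries and bars 95% intervals. Npc1l1, Scarb1, Abcg5, Abcg8 and Abca1 lie below 0 on the first 3 scales, and their intervals hold 0 on the villus marker scale.

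**Figure D4:**
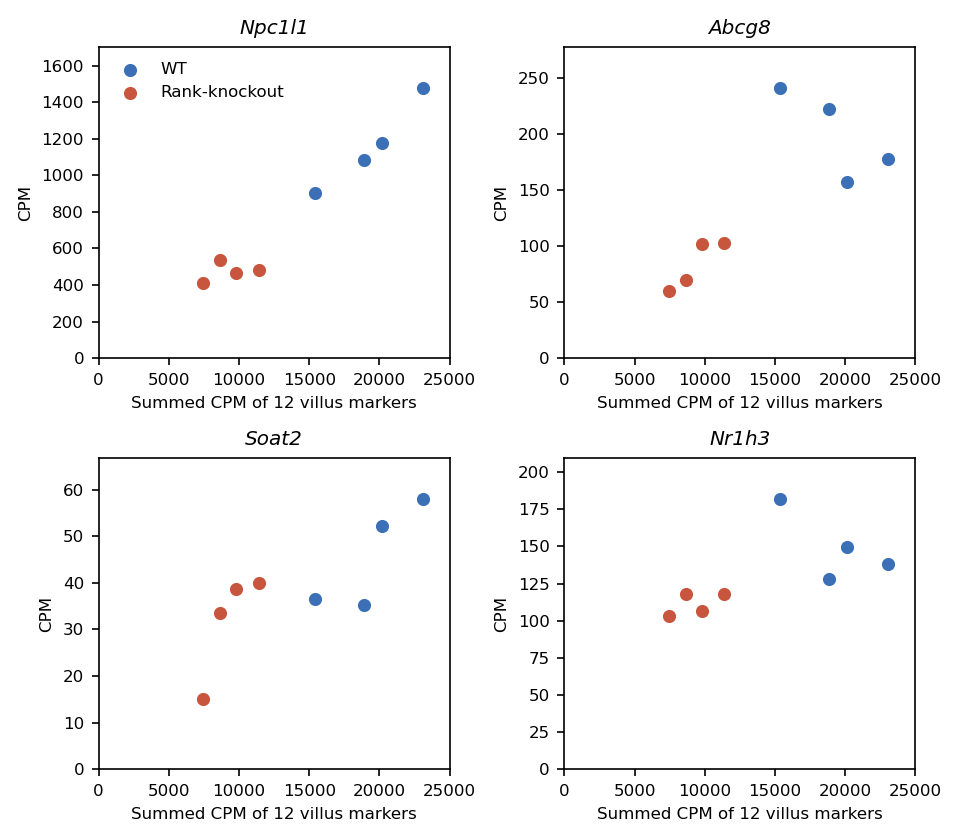
CPM of Npc1l1, Abcg8, Soat2 and Nr1h3 (vertical axes, linear from 0) against the summed CPM of 12 villus enterocyte markers (horizontal axis) in the 4 WT and 4 Rank-knockout libraries; points are libraries. Marker sums are 7444 to 11410 in Rank-knockout and 15390 to 23082 in WT, so the genotypes form separate clusters and no pooled correlation is given.

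Within WT, the library with the highest villus marker sum, replicate 4, also had the highest Npc1l1 and Soat2, and the one with the lowest sum, replicate 2, had the lowest Npc1l1. Abcg8 and Nr1h3 did not follow that order in WT, and both were highest in WT replicate 2. Within Rank-knockout the pattern was another one. Abcg8, Abcg5 and Soat2 had the same order as the villus marker sums there, while Npc1l1 was highest in replicate 3, which had the second lowest sum.

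The other genes of sterol handling were described by 6 lists with 51 genes, of which 44 could be tested. Of these, 12 were lower, or 27.3%, and 7 were higher, or 15.9%, which can be set beside 14.6% and 15.8% of all tested genes. These counts moved with the processing, and so did those over all genes. With library totals 7 were lower, where 859 of all 9855 genes were. Without WT replicate 1, 3 or 4, 4 were higher, where 1205 of 10208, 1207 of 10239 and 1020 of 10198 genes were. The median log2 fold change of the 44 was -0.27, and 5 of the lists are described here.

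Of 10 genes listed as partners of NPC1L1 and SR-BI, Cd36 among them, 4 were lower and 1 higher, and their median was -0.48. Pdzk1, the scaffold protein that holds SR-BI at the membrane in liver, went from 437 ± 48.2 CPM to 157 ± 19.9 CPM (SD, n = 4; log2 fold change -1.48, SE 0.14; edgeR adjusted p = 9.9e-05). Cd36, a fatty acid receptor that the study also names on these samples, went from 57.1 ± 11.9 CPM to 15.995 ± 4.601 CPM (SD, n = 4; -1.86, SE 0.23; edgeR adjusted p = 0.00014). Numb, the endocytic adaptor of NPC1L1, was at -0.67 and Myo5b, a motor of apical recycling, at -0.62 (edgeR adjusted p = 0.017 and 0.013, called in 15 and 16 of 17 other settings, and in neither case with library totals). Flot2, which encodes a membrane raft protein taken up with NPC1L1, was the gene counted as higher (log2 fold change 1.80, edgeR adjusted p = 0.011). It lay between 0 and 4.08 CPM in WT and between 5.23 and 11.5 CPM in Rank-knockout, on 20 and 113 counts, and passed the filter on low counts only through the Rank-knockout libraries, so that it had to differ in order to be tested and its call supports nothing. Its partner Flot1 was at -0.52 (edgeR adjusted p = 0.11).

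Of 15 intracellular sterol carriers and cholesterol ester enzymes, 5 were lower and 2 higher, with a median of -0.31. Those that fell were Lipa, the lysosomal acid lipase (-1.16), Scp2, a sterol carrier protein (-1.06), Gramd1b, an Aster protein that moves cholesterol from the plasma membrane to the endoplasmic reticulum (-1.06), Npc1, which exports cholesterol from lysosomes (-0.70), and Gramd1c (-0.69, edgeR adjusted p = 0.033, called in 8 of 17 other settings). Stard5, a lipid transfer protein, rose by 0.98 (edgeR adjusted p = 0.010). Soat1, the acyltransferase found in most tissues, rose by 0.78 at the edge of the threshold (edgeR adjusted p = 0.0498, called in 9 of 17 other settings), with overlapping genotypes.

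Of 7 transcription factors known at the promoters of these genes, 2 were higher and 0 lower. Srebf2, which encodes the sterol-sensing factor SREBP2, rose by 0.54 (SE 0.13; edgeR adjusted p = 0.0066), from 94.2 ± 2.96 CPM to 137 ± 13.6 CPM (SD, n = 4), with no overlap. The other was Nr5a2, which encodes LRH-1 and rose by 0.57 (edgeR adjusted p = 0.020, called in 13 of 17 other settings). Hnf4a, at 0.17, and Gata4, at -0.19, were not called (edgeR adjusted p = 0.45 and 0.51).

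Of the other LXR targets, 4 of 8 were tested and 1 was lower. Lpcat3, which puts polyunsaturated chains into phospholipids, went from 239 ± 7.57 CPM to 156 ± 28.004 CPM (SD, n = 4; -0.62, SE 0.15; edgeR adjusted p = 0.0056). Smpdl3a was at -0.48 and Srebf1 at 0.60 (edgeR adjusted p = 0.053 and 0.29). Abcg1, Pltp, Lpl and Apoe had too few counts to be tested. Of 6 LXR partners and corepressors, 5 were tested and 2 were lower, the partner receptor Rxra at -0.42 and the corepressor Ncor1 at -0.38 (edgeR adjusted p = 0.021 and 0.035, called in 11 and 7 of 17 other settings).

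**Figure D5:**
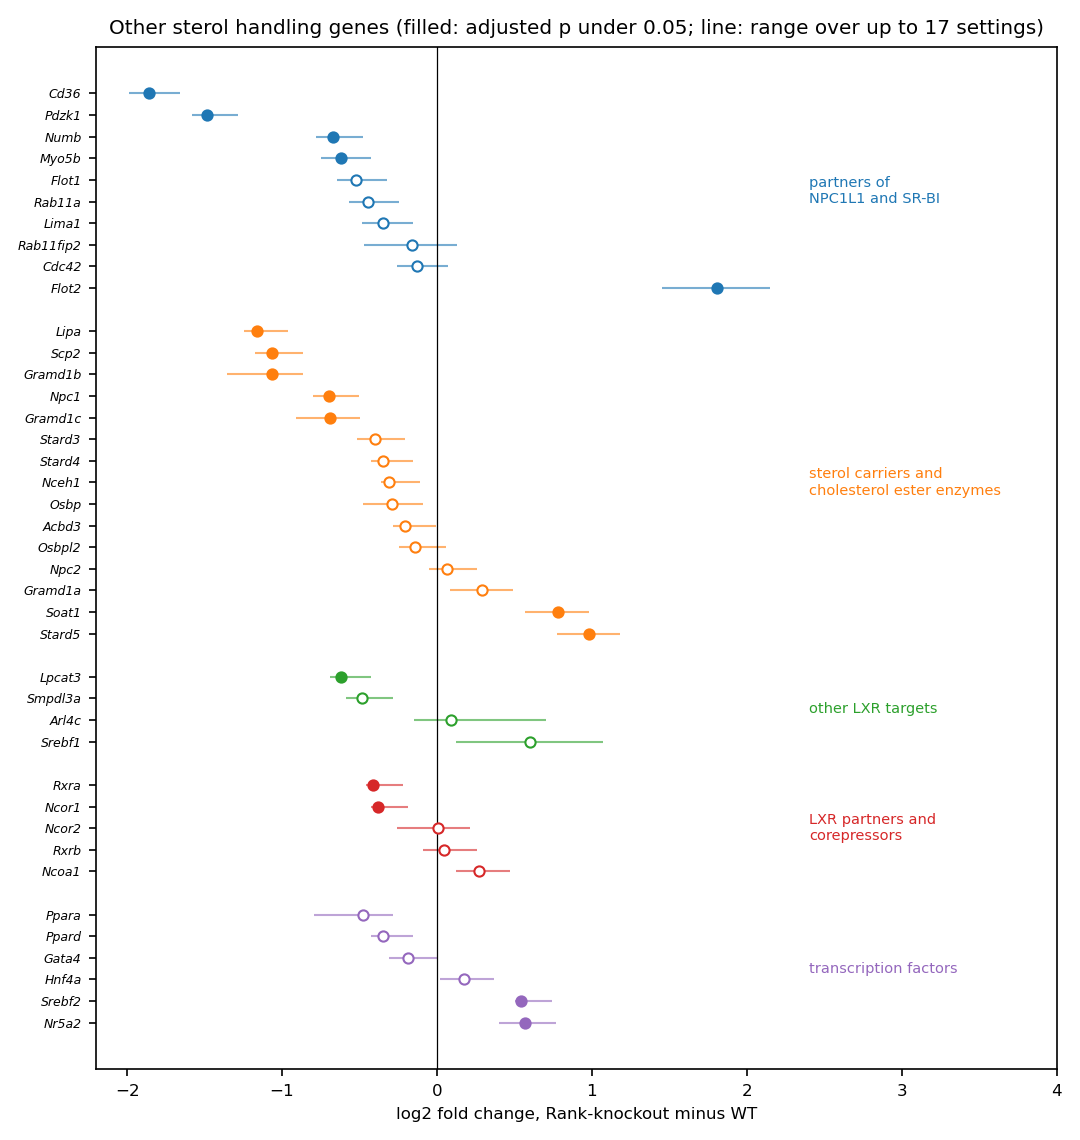
Log2 fold change, Rank-knockout minus WT (horizontal axis), of 40 of the tested genes in 5 of the lists (1 transcription factor is not shown), one row per gene and one colour per list; filled points have an edgeR adjusted p under 0.05, and lines span the values over up to 17 other settings. The 12 filled points below 0 lie in 4 of the lists, and Flot2, Stard5, Soat1, Srebf2 and Nr5a2 are the 5 above it.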

How the data were processed

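The deposited values were raw read counts per gene. The study's methods state that the authors used BBDuk for trimming, bowtie2 to take out abundant sequences, STAR for alignment to GRCm38 and featureCounts for sense-strand counts on the Ensembl annotation. No molecular identifiers are mentioned, so PCR copies count as reads. Symbols and positions came from GENCODE M21, and promoter sequences from RefSeq.

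All 8 libraries were fitted with edgeR 4.0.16 (quasi-likelihood, TMM, filterByExpr; R 4.3.3), with Benjamini-Hochberg adjustment over 9855 genes and genotype as the only term. The labels do not say that samples of a genotype came from separate litters or cages, so p values measure the spread between these samples. Per the study's methods, littermates were used unless stated otherwise, and the labels do not say which samples were littermates. Total counts, from 1530781 to 4335653, had a median of 3070751 in Rank-knockout and of 1609942.5 in WT, so low genes are measured less precisely in WT. The method was tested on simulated data in which few genes changed, in both directions, so that test does not cover the choice of scaling between libraries. Members and lists were chosen with earlier results of these data known. The text names all members, up to 4 genes with the smallest p per list, any called gene that goes against its list's median, and, for each member, the genes most alike over libraries; Flot1, Gramd1c, Hnf4a, Gata4 and untested genes were added for context, and some genes that the rule selects are not reported here. Other tools (DESeq2 1.42.0, limma-voom in limma 3.58.1) were tried, as were other scalings (RLE, library totals, totals that leave out the 50 highest genes, the mean log2 CPM of villus or epithelial markers), weaker and stronger filters on low counts, thinning to the shallowest library, a term for the replicate number, and each library left out.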

Additional observations from a re-analysis of the deposited data

How the results depend on the processing

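Npc1l1, Scarb1, Abcg5, Abcg8 and Abca1 were called lower under 17 alternatives of scaling, filter, tool, block, thinning and left-out library, with log2 fold changes from -1.40 to -1.10, -1.53 to -1.12, -1.06 to -0.71, -1.38 to -1.07 and -1.39 to -0.86. Soat2 ranged from -0.67 to -0.26, Nr1h3 from -0.53 to -0.23 and Nr1h2 from -0.43 to -0.08. The call of Nr1h3 was lost with library totals, without the 50 most abundant genes in the library size, with no filter on low counts, and when any 1 of 5 libraries was left out (WT 2 or 3, and Rank-knockout 1 to 3). Scaled to villus markers, 0 members were lower and 3 higher, and Abcg5 (0.22), Soat2 (0.60), Nr1h3 (0.70) and Nr1h2 (0.85) turned positive; that scale sets the villus markers near 0 by construction. With library totals 7 of the pathway genes were lower, on a scale where 859 of all 9855 genes were lower and 2566 higher, against 1438 and 1555 with TMM. Leaving out 1 library gave 5 to 6 members lower and 0 higher, and 8 to 15 pathway genes lower and 4 to 7 higher. Over all 9760 to 10239 genes tested in these settings, 1097 to 1564 were lower and 1020 to 1718 higher. The count of 4 came without WT replicate 1, 3 or 4. There, 1205 of 10208, 1207 of 10239 and 1020 of 10198 genes were higher.

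Left-out libraries moved the pair differences of Npc1l1/Abcg8 from -0.21 to 0.17, Npc1l1/Scarb1 from -0.20 to 0.30, Scarb1/Abca1 from -0.27 to 0.11 and Mylip/Nr1h3 from -1.08 to 0.45. The other pairs kept their sign, with Npc1l1/Abcg5 from -0.45 to -0.19, Npc1l1/Soat2 from -0.96 to -0.56, Abcg5/Abcg8 from 0.18 to 0.41, Nr1h3/Nr1h2 from -0.24 to -0.07 and Abca1/Nr1h3 from -1.08 to -0.44. With 2 added to each count Npc1l1/Scarb1 was -0.0013. The cause of these changes was not tested.

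Whether samples with the same replicate number were paired is not stated. Their deviations from the genotype means correlated by 0.052, 0.15, -0.14 and 0.32, and 2 of 4 WT libraries correlated best with their own number. These values cannot decide whether the samples were paired. With the replicate block, 1602 genes were lower and 1708 higher, and 7 members were lower, since Soat2 (-0.55, edgeR adjusted p = 0.047) joined them. Exact sign-flip tests of the pair ratios under this pairing cannot go below p = 0.125.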

Other observations

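For each member, the genes whose log2 CPM followed it most closely over the 8 libraries were looked up among 6107 or 6108 genes whose mean was 20 CPM or more. For Npc1l1 they were Eps8 (Pearson r = 0.992) and Selenop (0.991), and for Abcg8 Pcnx (0.995) and Slc26a6 (0.992). Abcg5 was followed by Slc4a4 (0.985) and H2-T3 (0.978), Abca1 by Atf7ip (0.979) and Dnajc13 (0.973), and Scarb1 by Ttc17 (0.970) and Arid4b (0.964). For Soat2 they were Flii and Maoa (both 0.971), for Nr1h3 Dctn2 (0.976) and Sphk2 (0.974), and for Nr1h2 Cdk5rap3 (0.986) and Vps28 (0.954). The points share the genotype difference and the libraries, and the values are a description.

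Ileal genes summed to 1.32 to 2.26 CPM in WT and 3.35 to 9.90 CPM in Rank-knockout. Fabp6 had 13 counts in all WT libraries and 85 in all Rank-knockout libraries, Slc10a2 had 4 and 6, and Fgf15 had 0. None had enough counts to be tested. Proximal intestine genes summed to 4270 to 7739 CPM in WT and 2386 to 4587 CPM in Rank-knockout, with overlap. Of 5 tested, 2 were lower, Lct and Adh6a, beside 14.6% of all tested genes. Most of the sum came from Fabp1 (means of 3884 and 2500 CPM, edgeR adjusted p = 0.074) and Lct, which is also a villus marker. Gata4 and Slc40a1 were not called either. The part of these lists in the fall of Npc1l1 and the other transporters was not tested.

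T cell markers summed to 24.4 to 47.5 CPM in WT and 17.3 to 36.9 CPM in Rank-knockout. Stromal and muscle markers were at 9.90 to 17.8 and 5.80 to 19.0 CPM, endothelial markers at 2.71 to 6.12 and 2.95 to 4.71 CPM with Cdh5 at 0, and B and plasma cell markers at 4.74 to 10.3 and 0.45 to 4.45 CPM with Cd79a at 0.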
